A study of Mus musculus with 35 samples.

Results

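Granins and the enzymes that turn peptide precursors into active peptides were followed in motoneurons of SOD1 and wild type mice. The 10 genes named were the granins Vgf, Chga, Chgb, Scg2 and Scg3, the convertase chaperone Scg5, the convertases Pcsk1 and Pcsk2, the carboxypeptidase Cpe and the amidating enzyme Pam. A probe set was taken where the array's annotation gave it exactly 1 gene and that gene was in this list. This gave 10 probe sets of 9 genes, among 34958 probe sets of 18194 genes that name 1 gene. Cpe had 2 probe sets, a bright one and a dim one, and each other gene had 1. Pcsk2 was not analysed here. All 10 probe sets passed the filter on low and unvarying values described under the processing steps.

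Gene expression was measured in laser-dissected motoneurons of the lumbar spinal cord, with 300 cells and 1 array per mouse. The SOD1 mice were hemizygous females of line B6.Cg-Tg(SOD1-G93A)1Gur/J, with human mutant SOD1 at high copy number, and the WT mice were their littermates without the transgene, on the C57BL/6 background. At week 11 of age there were 6 WT and 8 SOD1 mice, for which no pump is described. At week 15 there were 7 WT mice, 7 SOD1 mice whose osmotic minipump had delivered vehicle since week 11, and 7 SOD1 mice whose minipump had delivered G-CSF (filgrastim, a recombinant granulocyte colony-stimulating factor) over the same time. Age, cohort and (among SOD1 mice) the pump cannot be told apart. No pump is described for the WT mice, so genotype and pump cannot be told apart between SOD1 and WT mice of week 15.

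Peptide hormones and neuropeptides are made as long precursors and stored in dense-core vesicles. Granins are acidic proteins that aggregate in the trans-Golgi network and help to load these vesicles, and some of them are themselves cut into peptides. The convertases cut precursors at pairs of basic residues, Cpe removes the basic residues that are left, and Pam amidates the new end. In motoneurons dense-core vesicles carry peptides and growth factors along the axon to the neuromuscular junction.

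Granin promoters are known for cyclic AMP response elements, which bind CREB, a factor activated by neuronal activity. The promoter windows are shown as a description, chosen with the differences in these data known. Scg2, Chgb and Pcsk1 had main probe sets that read lower in WT mice of week 15 than of week 11, as described further on. Each had an unadjusted p under 0.05, as did 17.4% of all transcripts. RefSeq windows on GRCm38.p6 from 250 bases before to 50 bases after a start were found for 8 of the 10 genes. No window was matched for Vgf and Cpe, so these genes were not searched for any element. The full element, TGACGTCA, which reads the same on both strands, was in the windows of Scg2, Chgb and Pcsk1 and in 1.79% of all 32851 windows. The core element TGACG, searched on both strands and contained in the full one, was in 20.8% of all windows, and in those of Chga, Scg3, Scg5 and Pcsk2 besides. TGACTCA (the AP-1 element, both strands) was in 5.2% of all windows and TGATGNAA (an amino acid response element, both strands) in 3.97%, and neither was in a window of these genes. The following stretches run 5′ to 3′ on the strand of the gene, end at the base before the start except for Pcsk1, and have the element in capitals. Scg2 lies on the minus strand (chr1:79440027-79440146), and Chgb (chr2:132781522-132781641), Chga (chr12:102554821-102554940) and Pcsk1 (chr13:75089769-75089796) on the plus strand.
Scg2: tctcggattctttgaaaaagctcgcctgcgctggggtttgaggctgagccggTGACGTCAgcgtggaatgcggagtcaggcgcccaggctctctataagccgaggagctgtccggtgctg
Chgb: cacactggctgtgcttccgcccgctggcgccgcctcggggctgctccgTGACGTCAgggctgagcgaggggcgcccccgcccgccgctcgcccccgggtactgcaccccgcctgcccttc
Chga: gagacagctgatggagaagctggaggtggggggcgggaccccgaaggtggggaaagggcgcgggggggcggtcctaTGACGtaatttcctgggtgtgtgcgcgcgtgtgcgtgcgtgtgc
Pcsk1: caggtagatcTGACGTCAagagatggct
The full element began 68 bases before the start in Scg2, 72 in Chgb and 78 in Pcsk1, and the core element 44 bases before the start in Chga. The Pcsk1 entry starts 437 bases inside the gene as annotated, so its element lies within the gene. A match of letters is a description and not a measured binding site. Of the 3 genes with the full element only Scg2 was called between the WT cohorts. A link between the element and these differences was not tested, and the overlap was picked out of these same data.

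**Figure D1:**
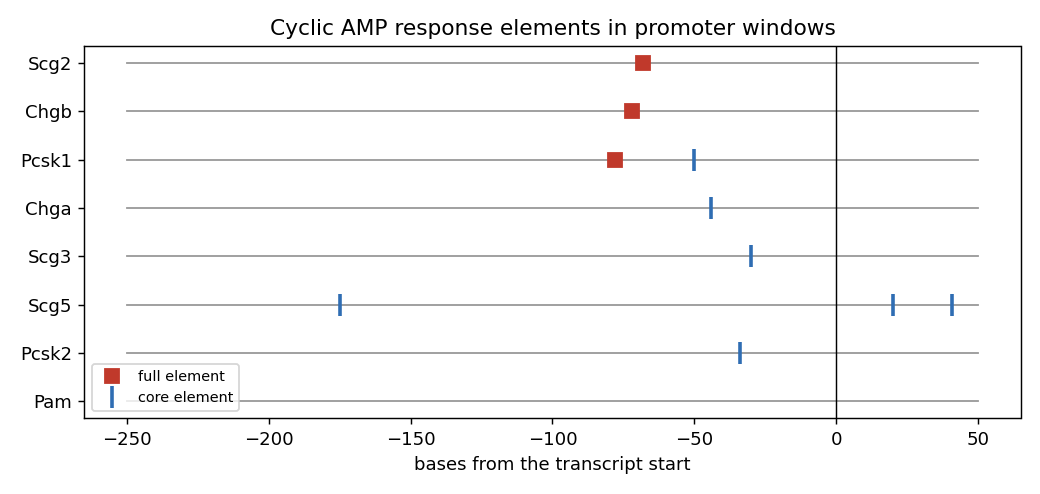
Places of the full element (squares) and of the core element (ticks) relative to the start, in bases, in the 8 promoter windows. The squares of Scg2, Chgb and Pcsk1 sit at -68, -72 and -78 bases, and Pam has neither.

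The arrays differed in ways that touch several results. Array medians lay between 3.19 and 3.47 on the log2 scale. The mean of the 3 control probe sets for 18S ribosomal RNA was 9.62 ± 0.63 (SD, n = 6) in WT and 10.40 ± 0.69 (n = 8) in SOD1 mice of week 11, and 12.13 ± 0.28 (n = 7) in WT and 11.58 ± 0.64 (n = 7) in vehicle-treated mice of week 15. The middle probe set, used as a covariate below, moved most between the WT cohorts, from 10.12 ± 0.68 to 13.13 ± 0.26. Markers of general neurons were over the array median on every array (9 of 9), whereas of 9 motoneuron markers 7 were, and the defining marker Chat was over it on 12 of 35 arrays. Markers of interneurons (4 of 5), astrocytes (7 of 8) and oligodendrocytes (4 of 5) were also over it on every array. The 4 arrays of lowest weight in limma's array weights were WT mouse 6 of week 11 (0.220), vehicle-treated mouse 3 (0.323), G-CSF-treated mouse 3 (0.379) and vehicle-treated mouse 5 (0.418). The planned fit without 3 arrays left out these mice other than G-CSF-treated mouse 3, and a fit without all 4 was added after the data had been seen. In such bulk samples, fewer cells of a type and less RNA per cell cannot be told apart. The replicates were separate mice, and how many arrays a group has limits how precise its values are. All levels below are log2 intensities, and all differences are differences of mean log2 intensity.

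Vgf rose in SOD1 motoneurons at both ages, with the week 11 call less stable than that of week 15. Vgf encodes a secreted granin-like precursor, induced by neurotrophins, whose peptides act on neurons. At week 11 its level in the 6 WT mice ran from 8.92 to 9.66 with a median of 9.33, and in the 8 SOD1 mice from 10.09 to 10.41 with a median of 10.19. Every SOD1 mouse was above every WT mouse, and the SOD1 mice lay close together (SD 0.12, against 0.28 in WT mice). The mean difference was 0.92 (SE 0.24, limma adjusted p = 0.0628), a 1.90-fold rise. To be called, a transcript needed 3 things: a raw p under 0.05, an adjusted p under 0.1 (Benjamini-Hochberg, over all transcripts of that comparison) and a change of 1.5-fold or more. Of all transcripts tested, 1.32% were called in this comparison, 1.13% as higher, and 0.705% had groups that did not overlap (0.456% with SOD1 higher). Vgf was 1 of 9 genes called. The call ended without any 1 of SOD1 mice 4, 7 or 8 or of WT mice 1, 2, 4 or 5, where the difference stayed between 0.85 and 0.97 and the adjusted p between 0.104 and 0.140. It also ended with quantile normalization (0.85, limma adjusted p = 0.151) and with 18S as a covariate (0.84, limma adjusted p = 0.146, or 0.81 and 0.247 with the mean of the 3 control probe sets), and 18S was higher in SOD1 than in WT mice of that week.

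At week 15 the Vgf level of WT mice ran from 8.86 to 9.82 with a median of 9.50, and that of vehicle-treated SOD1 mice from 9.64 to 11.29 with a median of 10.32. The ranges overlapped, and 5 of 7 vehicle-treated mice were above every WT mouse. The difference was 0.85 (SE 0.24, limma adjusted p = 0.0378), a 1.80-fold rise, where 5.91% of all transcripts were called, 1.72% as higher and 4.2% as lower. It passed all thresholds without each mouse in turn, at 0.69 to 0.96. The SOD1 effect at week 15 minus that at week 11 was -0.07 (95% interval -0.76 to 0.62), so the weeks could differ by this much in either direction.

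In G-CSF-treated mice Vgf ran from 8.47 to 10.57 with a median of 10.13. Mouse 1 was below every WT mouse of week 15 and the other 6 were above every one of them. Against vehicle the difference was -0.31 (95% interval -0.80 to 0.17, limma adjusted p = 0.764). Against WT it was 0.54 (SE 0.24, limma adjusted p = 0.334), and without mouse 1 it was 0.79 and passed the thresholds (limma adjusted p = 0.0308). In order of group mean, vehicle-treated mice (10.32 ± 0.58), SOD1 mice of week 11 (10.23 ± 0.12), G-CSF-treated mice (10.005 ± 0.72), WT mice of week 15 (9.47 ± 0.30) and WT mice of week 11 (9.30 ± 0.28) followed each other, and no neighbours in that order were further apart than the larger of their SDs.

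Markers of neurons and glia moved beside Vgf. Of 9 general neuron markers 2 were called at week 11, where 1.13% of all transcripts were called higher. Uchl1, a ubiquitin hydrolase, and Eno2, the neuronal enolase, rose by 1.16 (SE 0.21) and 1.09 (SE 0.23). Rbfox3 (10.14 in SOD1 and 10.41 in WT mice) and Syt1 (6.04 and 6.16) read lower in SOD1 mice without being called. The median difference of the 9 was 0.27, and their mean level was 10.60 in SOD1 and 10.25 in WT mice. At week 15 that mean was 9.80 in vehicle-treated and 10.13 in WT mice, and 2 of the 9 were called lower. Of 8 microglia markers tested 4 rose, among them Tyrobp by 2.82 (SE 0.61). Over all transcripts 1.72% were called higher and 4.2% lower in that comparison. Of 8 astrocyte markers, only Gfap was called, as higher at both weeks. At week 11 it rose by 2.14 (SE 0.57) from 4.57 ± 0.70 to 6.71 ± 1.36. At week 15 it rose by 3.70 (SE 0.57) from 4.78 ± 1.07 to 8.48 ± 0.96. Its 2 other probe sets were not called. The median differences of the 8 astrocyte markers were 0.22 at week 11 and 0.05 at week 15. The 5 interneuron markers had median differences of 0.54 at week 11 and 0.65 at week 15, beside -0.01 and 0.02 over all transcripts, with none called. Those of the 9 motoneuron markers were 0.005 and -0.34, with 0 called at week 11 and 2 called lower at week 15. The mean level of the motoneuron markers was 6.96 in vehicle-treated and 7.67 in WT mice of week 15. The part of these markers in the Vgf result was not tested. After subtracting group means, the genes outside the list whose main probe sets followed Vgf most closely over the 35 mice were Tkt (r = 0.78), Acoxl (r = 0.76) and Tubb2b (r = 0.72), out of 14257 genes searched. The points share amplified RNA and array per mouse, and the correlations are descriptions.

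**Figure D2:**
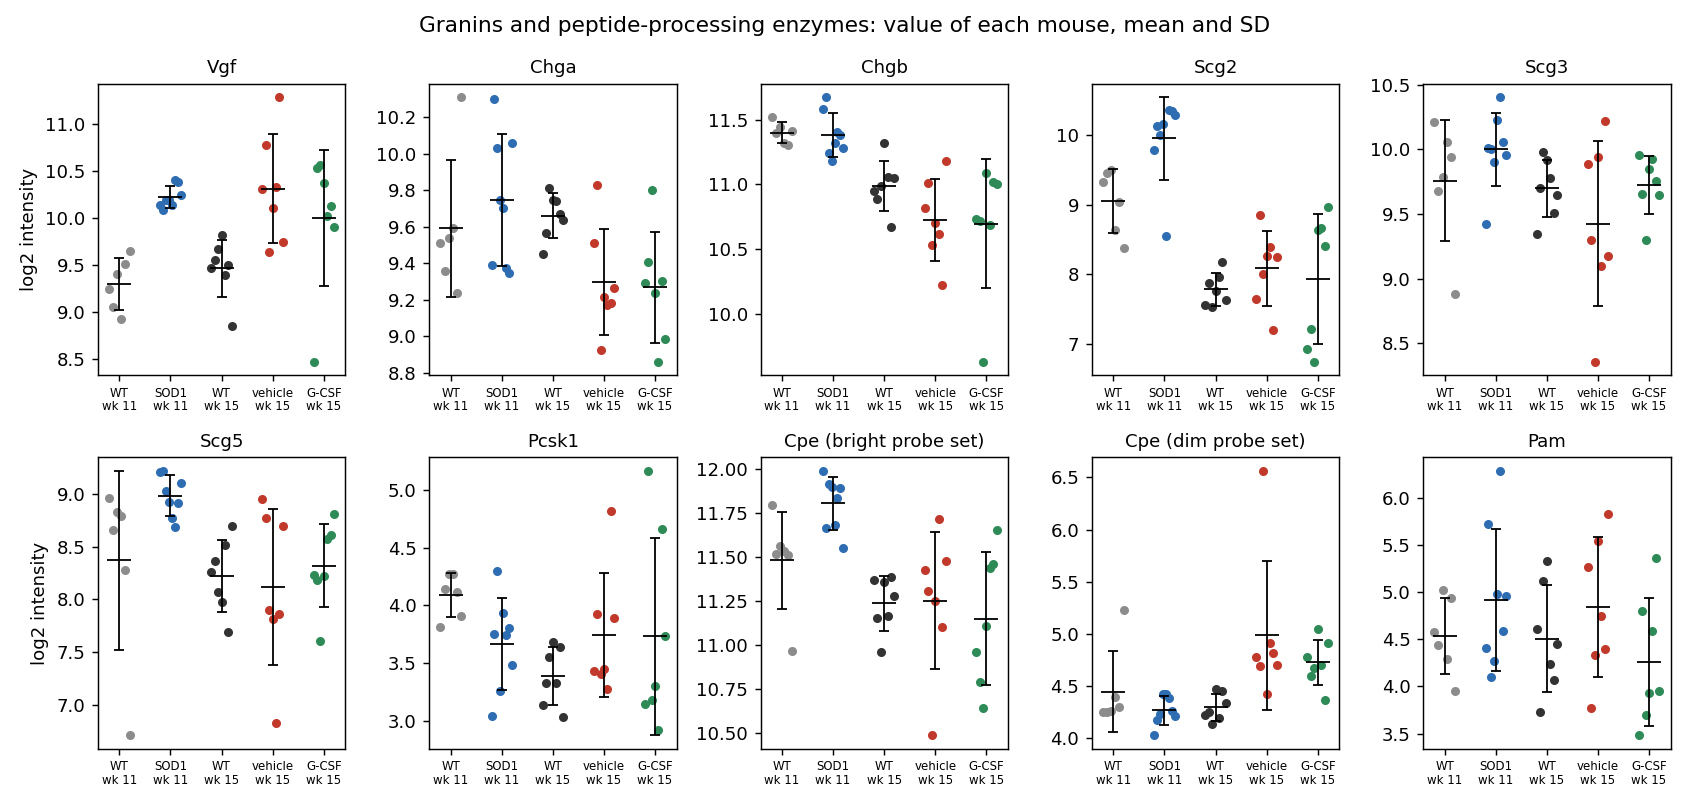
Log2 intensity of each mouse (points) with the mean and SD of its group (bars) for the 10 probe sets. Each panel has its own axis. Vgf of the 8 SOD1 mice of week 11 lies above all 6 WT mice, and Scg2 of the 7 WT mice of week 15 lies below all 6 WT mice of week 11.

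Scg2, the precursor of secretoneurin, had the largest SD of the members over the 35 mice (1.03) and fell between the WT cohorts. Its level in WT mice of week 11 ran from 8.38 to 9.50 with a median of 9.18, and in WT mice of week 15 from 7.53 to 8.18 with a median of 7.77. The groups did not overlap. The difference was -1.27 (SE 0.32, limma adjusted p = 0.0184), a 2.41-fold fall, in a comparison where 5.56% of all transcripts were called, 3.29% as higher and 2.26% as lower, and 2.99% had groups that did not overlap (1.33% with week 15 lower). Scg2 was 1 of 9 genes called. It passed without each mouse in turn, at -1.41 to -1.18. The 18S controls rose over the same cohorts. The middle probe set ran from 9.23 to 10.86 in WT mice of week 11 and from 12.70 to 13.50 in those of week 15. The mean of the 3 ran from 8.88 to 10.39 and from 11.59 to 12.39. Neither overlapped between the cohorts, so a fit with 18S as a covariate cannot separate 18S from cohort. With the middle probe set as a covariate the difference was -0.52 (SE 0.75, limma adjusted p = 0.945), with 36 transcripts called over all genes in place of 1743, and with the mean of the 3 it was -1.18 (SE 0.60, limma adjusted p = 0.459), with 387 called.

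Interneuron markers moved with Scg2 between the WT cohorts. The mean of the 5 markers was 7.47 (6.61 to 7.99) in WT mice of week 11 and 6.48 (6.30 to 6.62) in WT mice of week 15. Of the 5, Gad1, which makes GABA, fell by 1.9995 (SE 0.54) and Slc6a5, the glycine transporter, by 1.05 (SE 0.33). Of 5 oligodendrocyte markers 3 rose, where 3.29% of all transcripts were called higher and 2.26% lower. Week, cohort, 18S level and cell makeup cannot be told apart here.

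In SOD1 mice of week 11 Scg2 ran from 8.55 to 10.35 with a median of 10.14. Mouse 5 alone lay inside the WT range, and the other 7 were above every WT mouse. The difference from WT was 0.89 (SE 0.32, limma adjusted p = 0.218) and did not pass. Without mouse 5 it was 1.09 and passed (limma adjusted p = 0.0921). At week 15 vehicle-treated mice ran from 7.20 to 8.86 with a median of 8.24, which overlapped with WT, and differed from WT by 0.30 (95% interval -0.33 to 0.94). The G-CSF-treated mice had 3 values between 6.75 and 7.22, below every WT mouse, and 4 between 8.40 and 8.97, above every WT mouse, and their mean differed from vehicle by -0.15 (95% interval -0.79 to 0.48). The order of group means was SOD1 of week 11, WT of week 11, vehicle, G-CSF and WT of week 15, and the first 3 were separated by more than the larger SD of each neighbouring pair. The genes that followed Scg2 most closely within groups were Rps7 (r = 0.68), Gpbp1 (r = 0.67) and Aldh7a1 (r = 0.67) over 35 mice.

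Chromogranins changed less. Chga, chromogranin A, is the classical granin of chromaffin cells, and Chgb, chromogranin B, is its relative in endocrine cells and neurons. Chga had a median of 9.67 (9.45 to 9.81) in WT mice of week 15, 9.21 (8.92 to 9.83) in vehicle-treated and 9.29 (8.86 to 9.80) in G-CSF-treated SOD1 mice. These ranges overlapped. Vehicle differed from WT by -0.36 (SE 0.17, limma adjusted p = 0.229) and G-CSF from WT by -0.39 (SE 0.17, limma adjusted p = 0.318), both short of the thresholds. At week 11 the medians were 9.53 in WT (9.24 to 10.31) and 9.72 in SOD1 mice (9.35 to 10.30), and the SOD1 effect of week 15 minus that of week 11 was -0.51 (SE 0.24, limma adjusted p = 0.250).

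Chgb held steady within WT mice of week 11, from 11.30 to 11.52 (median 11.41), and SOD1 mice of that week spanned 11.18 to 11.68 (median 11.35). The difference between them was -0.02 (95% interval -0.35 to 0.32). At week 15 the medians were 10.99 in WT (10.67 to 11.32), 10.70 in vehicle-treated (10.22 to 11.18) and 10.73 in G-CSF-treated mice (9.63 to 11.09). WT mice of week 15 were lower than WT mice of week 11 by a difference of -0.41 (SE 0.17, limma adjusted p = 0.184), which did not pass, with 1 value of week 15 reaching into the range of week 11. With 18S as a covariate it was -0.01 (SE 0.39), or -0.25 (SE 0.31) with the mean of the 3 control probe sets. Vehicle differed from WT by -0.26 (95% interval -0.60 to 0.07).

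Scg3, a granin that binds cholesterol-rich membrane and chromogranin A, passed in no comparison. Its group means lay between 9.42 ± 0.64 (vehicle) and 9.9997 ± 0.28 (SOD1 of week 11), and its value ran from 8.36 to 10.41 over the 35 mice. G-CSF differed from vehicle by 0.30 (95% interval -0.13 to 0.73) and vehicle from WT by -0.27 (95% interval -0.70 to 0.16).

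Scg5 encodes 7B2, the chaperone that Pcsk2 needs for its maturation. At week 11 WT mice ran from 6.72 to 8.96 with a median of 8.72 and SOD1 mice from 8.69 to 9.22 with a median of 8.97. WT mouse 6, the array of lowest weight, gave the lowest of these values. The difference was 0.61 (SE 0.28, limma adjusted p = 0.423), and without that mouse it was 0.28. It passed in neither case. At week 15 the group means were 8.22 ± 0.34 in WT, 8.12 ± 0.74 in vehicle-treated and 8.32 ± 0.39 in G-CSF-treated mice.

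Pcsk1, the convertase PC1/3, read close to the array median (above it on 27 of 35 arrays), where GCRMA draws values together and a change is hard to size. WT mice of week 11 ran from 3.81 to 4.27 with a median of 4.13 and WT mice of week 15 from 3.03 to 3.68 with a median of 3.33. These groups did not overlap, as in 2.99% of all transcripts (1.33% with week 15 lower). The difference of -0.70 (SE 0.28) missed the threshold (limma adjusted p = 0.164). Without G-CSF-treated mouse 2, which enters through the shared estimate of spread, it passed (limma adjusted p = 0.0904). With 18S as a covariate it was -1.36 (SE 0.64, limma adjusted p = 0.685), or -1.46 (SE 0.49, limma adjusted p = 0.189) with the mean of the 3 control probe sets. Single mice stood high at week 15, with vehicle-treated mouse 6 at 4.82 and G-CSF-treated mice 2 and 6 at 5.17 and 4.66. At week 11 SOD1 differed from WT by -0.42 (95% interval -0.97 to 0.13).

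Pcsk1n encodes proSAAS, an inhibitor of Pcsk1, and fell by 1.37 (SE 0.23, limma adjusted p = 0.0005) from WT mice of week 11 to WT mice of week 15. Its level ran from 7.29 to 9.38 in the first and from 6.19 to 6.98 in the second, so the groups did not overlap. The same held for 2.99% of all transcripts, 1.33% with week 15 lower. Vehicle-treated mice (6.63 ± 0.13) were close to WT mice of week 15 (6.62 ± 0.30), with a difference of 0.02 (SE 0.22). At week 11 SOD1 mice were at 8.70 ± 0.41 and WT mice at 7.99 ± 0.76, a difference of 0.71 (SE 0.22, limma adjusted p = 0.142). Scg2 and Pcsk1n thus had the same order of WT week 11 over WT week 15, and the 18S level and the interneuron markers given above moved over the same mice.

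Cpe, which trims basic residues from cut precursors, was read by a bright probe set over the array median on all 35 arrays. Its level in WT mice of week 11 was 11.48 ± 0.27, in SOD1 mice of week 11 11.81 ± 0.15, in WT mice of week 15 11.24 ± 0.16, in vehicle-treated mice 11.25 ± 0.39 and in G-CSF-treated mice 11.15 ± 0.38. No comparison passed. At week 11 SOD1 differed from WT by 0.32 (95% interval -0.01 to 0.65), and at week 15 vehicle differed from WT by 0.01 (95% interval -0.31 to 0.34).

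The dim probe set of Cpe gave another picture. It ran from 4.13 to 4.47 with a median of 4.25 in WT mice of week 15 and from 4.42 to 6.57 with a median of 4.78 in vehicle-treated mice. The difference was 0.69 (SE 0.20, limma adjusted p = 0.0498) and passed, with mouse 3, 1 of the arrays of low weight, at 6.57. Without mouse 3 it was 0.43 and under the 1.5-fold minimum, and without the 3 arrays or all 4 it was 0.39. Since the probe sets disagree, no direction is given for Cpe. The genes that followed the bright probe set most closely within groups were Sh3gl2 (r = 0.85), Sparcl1 (r = 0.84) and Nap1l5 (r = 0.84) over 35 mice.

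Pam, the only enzyme known to amidate peptides, passed in no comparison. Its level ran from 3.48 to 6.29 over the 35 mice, and the group SDs of 0.40 to 0.75 were wide. G-CSF-treated mice had a mean of 4.26 ± 0.68 and vehicle-treated mice 4.84 ± 0.74. The difference of -0.58 (95% interval -1.27 to 0.10, limma adjusted p = 0.673) had the smallest unadjusted p of the members in the comparison of G-CSF with vehicle.

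**Figure D3:**
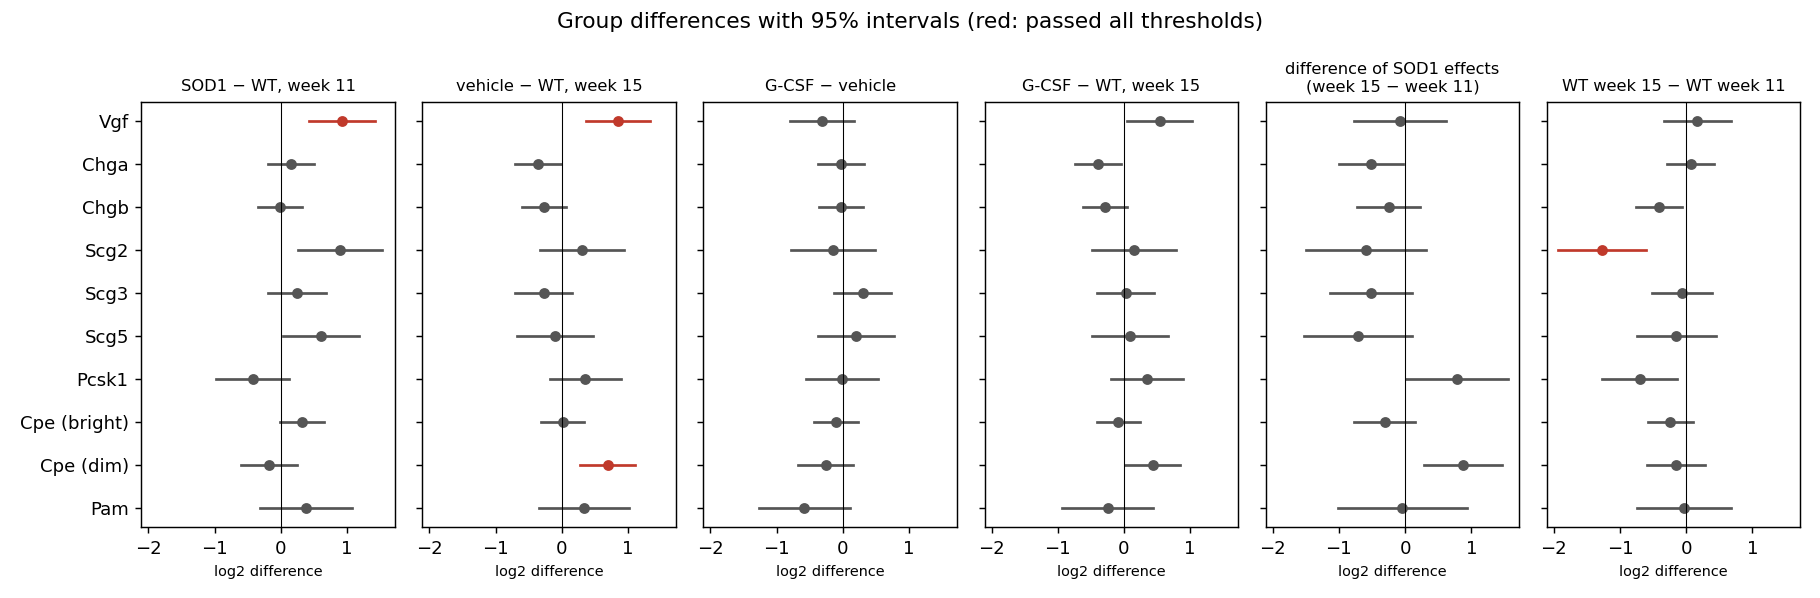
Differences of mean log2 intensity (points) with 95% intervals (lines) for the 10 probe sets in the 6 comparisons, and those that passed all thresholds in red. Vgf passed against WT at both weeks (0.92 and 0.85), the dim Cpe probe set in vehicle against WT (0.69) and Scg2 between the WT cohorts (-1.27).

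Counted over the 9 genes at their main probe sets, 7 read higher in SOD1 than in WT mice of week 11 and 2 lower. The median difference was 0.32 beside -0.01 over all transcripts. General neuron markers had a median of 0.27 there and genes of dense-core vesicle formation 0.28. Genes of vesicle release and peptide precursors each had a median of 0.07. Of the 9 members, 3 had an unadjusted p under 0.05 (Vgf, Scg2 and Scg5), as did 11.0% of all transcripts. At week 15, 5 read higher in vehicle-treated mice and 4 lower, with a median of 0.01 beside 0.02 over all transcripts. The SOD1 effect of week 15 minus that of week 11 had a median of -0.31 beside 0.02, with 8 of 9 lower. The median was -0.64 for general neuron markers, -0.37 for vesicle formation, -0.53 for vesicle release and 0.19 for peptide precursors. In that comparison 2.93% of all transcripts and 0 members passed in limma, while 2 main probe sets (Chga and Pcsk1) and the dim Cpe probe set had an unadjusted p under 0.05, as did 18.1% of all transcripts. Comparisons here share samples and are not independent of each other.

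For G-CSF against vehicle, limma called 0 members, where it called 0.0383% of all transcripts, 0.0255% as lower. Of the members, 0 had an unadjusted p under 0.05 (8.3% of all transcripts). Tukey's comparison also called 0 members. The 95% intervals of the 9 main probe sets together spanned -1.27 to 0.77. For G-CSF against WT, limma called 0 members, where 1.13% of all transcripts were called, and Tukey's comparison also called 0, while Vgf, Chga and the dim Cpe probe set had an unadjusted p under 0.05, as did 12.7% of all transcripts.

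**Figure D4:**
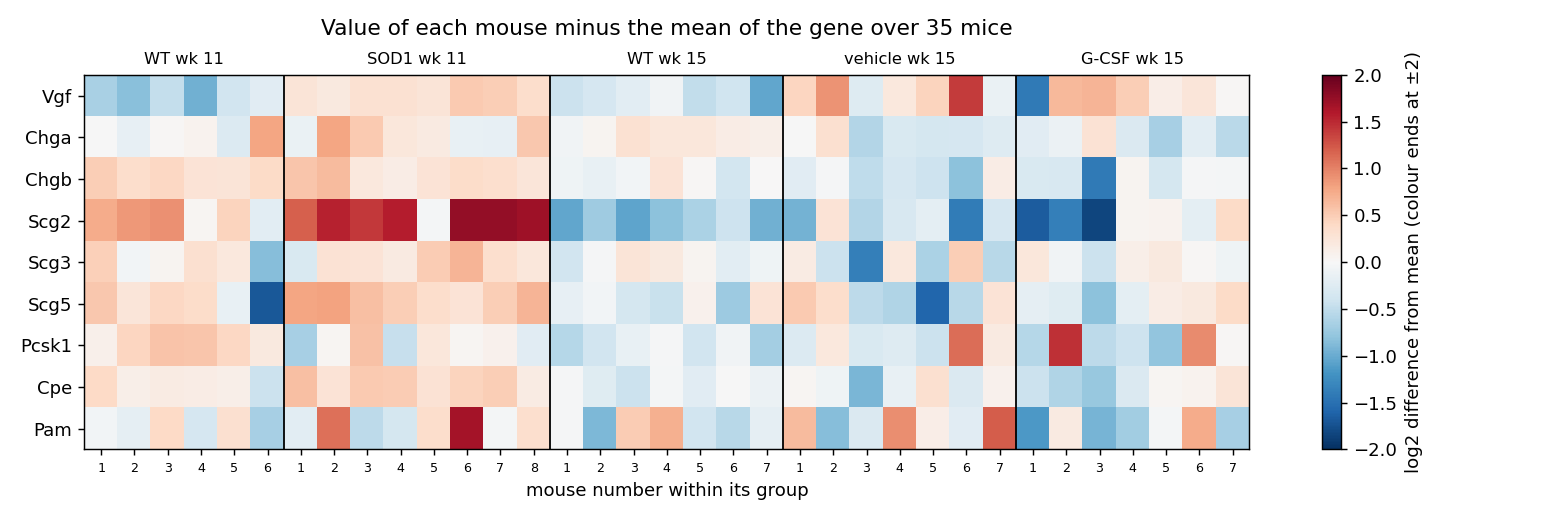
Level of each mouse minus the mean of that gene over the 35 mice (log2, colour) for the 9 genes at their main probe sets, with mice in columns by group. Scg2 is high in 7 of the 8 SOD1 mice of week 11 and low in the WT mice of week 15, and Vgf is low in all 6 WT mice of week 11.

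Within groups the members did not move as a block. After subtracting group means, the correlation between members over 35 mice ran from -0.38 (Chga with Cpe) to 0.55 (Scg2 with Cpe), and Chgb with Scg2 gave 0.50 and Vgf with Pcsk1 0.42. Vgf, called higher in SOD1 mice of week 11, and Scg2, which read higher there without passing, gave 0.03.

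Peptide precursors, the substrates of these enzymes, were the longest of the other lists. Of 17 precursors tested, 5 rose and 1 fell in vehicle-treated against WT mice of week 15. Over all transcripts 1.72% were called higher and 4.2% lower there. Adcyap1, the precursor of PACAP, rose by 2.49 (SE 0.59, limma adjusted p = 0.0137), from a WT range of 4.16 to 5.16 to 6.06 to 8.47. Npy rose by 2.05 (SE 0.35), Penk, the enkephalin precursor, by 1.66 (SE 0.48), Gal, the galanin precursor, by 1.65 (SE 0.27) and Cartpt by 1.38 (SE 0.36). Cck fell by 0.73 (SE 0.24). Npy ran from 4.15 to 7.93 in vehicle-treated mice and from 3.83 to 4.32 in WT mice. The 5 interneuron markers had a median difference of 0.65 in this comparison, beside 0.02 over all transcripts, and a mean level of 7.03 (5.73 to 7.62) in vehicle-treated and 6.48 (6.30 to 6.62) in WT mice. None of the 5 passed, 2 had an unadjusted p under 0.05, and their part in the precursors' values was not tested.

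At week 11 Adcyap1 was the 1 of 17 precursors tested that rose, where 1.13% of all transcripts were called higher. It rose by 2.30 (SE 0.60, limma adjusted p = 0.0605), with SOD1 mice from 3.69 to 9.43 and WT mice from 4.44 to 5.33. G-CSF-treated mice were below vehicle-treated mice in Npy, with a mean of 4.08 ± 0.48 against 6.07 ± 1.37 and a difference of -1.999 (SE 0.35, limma adjusted p = 0.0247). Between the WT cohorts Vip fell by 1.84 (SE 0.53) and Cartpt by 1.43 (SE 0.37). Of the 5 interneuron markers 2 fell and the 18S controls rose over the same mice, as given for Scg2, and their part was not tested. Vip was over the array median on 14 of 35 arrays. Npy and Cartpt also passed in the difference of the SOD1 effects, at 1.92 (SE 0.50) and 1.69 (SE 0.50).

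Genes of dense-core vesicle formation (14 tested) changed in few cases. Ptprn, the vesicle membrane protein IA-2, rose by 0.74 (SE 0.20, limma adjusted p = 0.0845) in SOD1 mice of week 11 and fell by 0.74 (SE 0.21) between the WT cohorts. Its level was 7.15 ± 0.41 in SOD1 mice and 6.42 ± 0.37 in WT mice of week 11. In vehicle against WT, Rab2a, a GTPase of vesicle maturation, fell by 0.68 (SE 0.14, limma adjusted p = 0.0046), as did 1 of its 5 other probe sets, and Vps50, of the complex that returns vesicle cargo, fell by 1.64 (SE 0.53), with its 1 other probe set not called. Rab2a also passed in the difference of the SOD1 effects at -0.92 (SE 0.20).

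Of 9 genes of vesicle release tested, Syt7, a calcium sensor, rose by 1.08 (SE 0.30, limma adjusted p = 0.0340) in vehicle against WT and by 0.94 (SE 0.31) between the WT cohorts, and Syt4 rose by 0.77 (SE 0.26) between the WT cohorts. Of the 5 other convertases, 7 other trimming and end-modifying enzymes and 4 genes of copper and ascorbate supply tested, limma called 0 in each of the 6 comparisons. Their median differences stayed between -0.49 and 0.20.

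**Figure D5:**
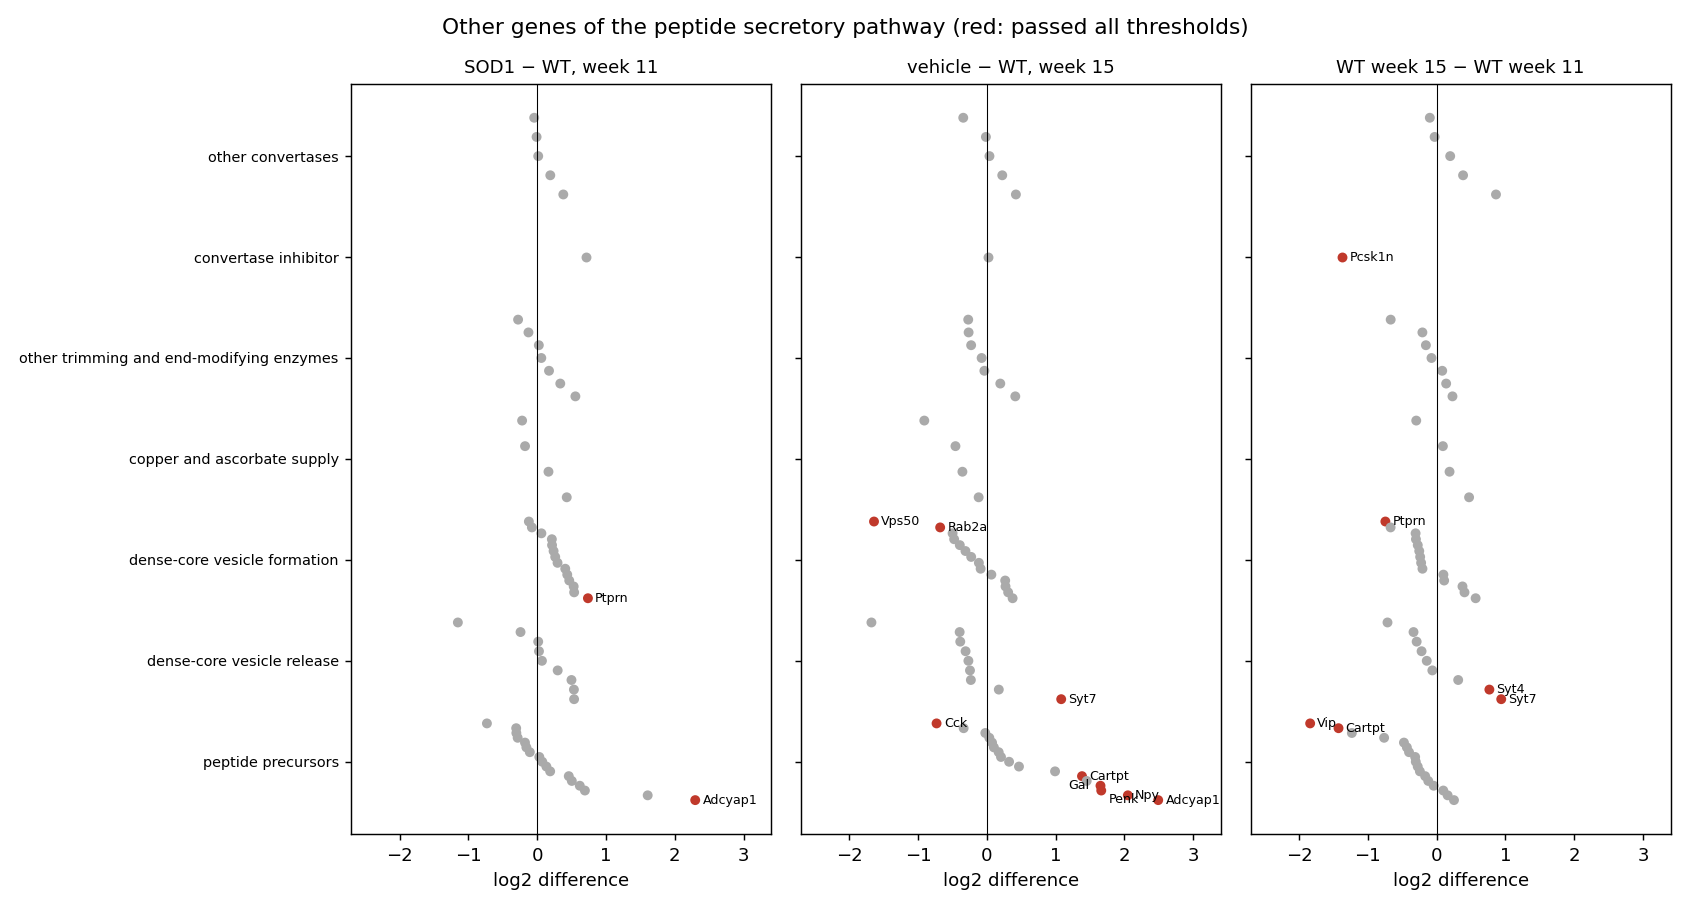
Differences of mean log2 intensity for genes of the 7 other lists of the peptide secretory pathway (1 point per gene) in 3 of the 6 comparisons. Genes that passed all thresholds are red and named. Among the 17 peptide precursors, 5 are higher and 1 is lower in vehicle against WT.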

How the data were processed

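Each of 35 mice gave 1 Affymetrix mouse genome array of amplified RNA from laser-dissected motoneurons. The authors used Affymetrix Expression Console with GCRMA, whose versions are not given in the sources used here. Deposited were log2 intensities for 45101 probe sets, 64 of them controls. The platform annotation names 1 gene for 34958, several for 932 and none for 9211.

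The filter of the methods (over the 20th centile on 4 or more arrays, and an SD not under the 30th) left 31352 probe sets. limma (version 3.58.1, R 4.3.3) was fitted over all of them with 1 mean per group, p-values were adjusted by Benjamini-Hochberg over all of them, and the step was tested on simulated data. The main probe set of a gene is its brightest. All members are named at all probe sets, and of the pathway lists the genes called, at most 4 per list and comparison, with others named where a count of 5 or fewer asked for it. Members, lists and tests were chosen with earlier results of these data known.

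The alternatives were other thresholds, filters, priors and normalization, ANOVA with Tukey's comparison, array weights, an 18S covariate, a replicate block, fits on 2 groups, a mean over probe sets and leaving out arrays. A covariate from all 3 18S probe sets and a fit without the 4 arrays of lowest weight were added after the data had been seen. Tables and figures were made with pandas 2.3.3, matplotlib 3.10.9 and Python 3.11.15.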

Additional observations from a re-analysis of the deposited data

Results flagged for a closer look

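In 7 of 45 groups of a gene's main probe set, 1 mouse lay far from the others by Dixon's criterion, which chance flags in about 1 of 20 groups. WT mouse 6 of week 11 gave 3 of these, with Chga at 10.3115 (nearest 9.5947), Cpe at 10.9682 (nearest 11.5135) and Scg5 at 6.7161 (nearest 8.2769). SOD1 mouse 5 of week 11 had Scg2 at 8.5522 (nearest 9.7788). Vehicle-treated mouse 6 had Pcsk1 at 4.8204 (nearest 3.9225). G-CSF-treated mouse 3 had Chgb at 9.6283 (nearest 10.6885), and G-CSF-treated mouse 1 had Vgf at 8.4745 (nearest 9.9112). The cause was not tested.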

How the results depend on the processing

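The Vgf call at week 11 (1 member called) became 0 at an adjusted p under 0.05, with quantile normalization (0.85, limma adjusted p = 0.151) and with the 18S covariate (0.84, limma adjusted p = 0.146), and became 2 with array weights, which added Scg2. Leaving out 1 mouse gave 0 to 2. In vehicle against WT (2 members called, Vgf and the dim Cpe probe set) the count was 1, Vgf, with only the 2 groups of the contrast, with array weights, without WT mouse 6 of week 11 and vehicle-treated mice 3 and 5, and with the mean of all probe sets per gene, and 1 to 2 leaving out 1 mouse. Vgf passed there in each of 15 settings. Between the WT cohorts (1 member called, Scg2) the count was 2 with only the 2 groups and with array weights, which added Pcsk1, 0 with the 18S covariate, and 1 to 2 leaving out 1 mouse. It was 0 to 1 leaving out 1 mouse in G-CSF against WT (Vgf, without mouse 1) and in the difference of the SOD1 effects (the dim Cpe probe set, without vehicle-treated mouse 4), and 0 in every setting run for G-CSF against vehicle. Of the alternatives added after the data had been seen, the covariate from the mean of 3 18S probe sets gave 0 members at week 11, 1 (Vgf) in vehicle against WT and 0 between the WT cohorts, and the fit without the 4 arrays of lowest weight gave 1 in each. Of 45 probe set differences with an unadjusted p of 0.05 or more, 23 changed sign somewhere (the largest main value 0.27) and 0 became called. Replicate numbers did not pair the mice (0 of 6 pairs at week 11 and 0 of 7 at week 15 had a correlation over 0.1). With the replicate block 0 members were called at week 11 (Vgf 0.97, limma adjusted p = 0.105). ANOVA with Tukey's comparison and the fit on 2 groups cannot give the difference of the SOD1 effects. The cause of these changes was not tested.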

Other observations

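The full cyclic AMP response element was in the windows of 381 genes tested and absent from those of 11064. Between the WT cohorts 3.94% of the genes with it were called lower and 2.97% of those without it, with median differences of -0.10 and -0.06. In vehicle against WT the shares called lower were 6.30% and 5.04%, and in G-CSF against WT 0.79% and 0.93%. The shares called higher were 2.36% and 2.42% between the WT cohorts and 1.84% and 2.02% in vehicle against WT. These are descriptions with no test, and Scg2, Chgb and Pcsk1 are among the genes with the element.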
